A study of Mus musculus with 3 samples.

Results

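The regions described here are the parts of the mouse genome that were pulled down with an antibody against 5-hydroxymethylcytosine (5hmC) and that lie outside every annotated gene. The peaks of 3 replicates were merged wherever they overlapped by at least 1 bp on chromosomes 1 to 19, which gave 13285 merged regions. A merged region was kept if its midpoint lay in no gene of any type in the GENCODE M39 annotation and more than 1 kb from every transcription start. This left 1224 regions, or 9.21% of all merged regions, while 11851 had their midpoint inside a gene and 210 lay outside genes within 1 kb of a start. The samples were hMeDIP-seq libraries, in which sonicated DNA bound by the antibody is sequenced directly on a nanopore and the modification state of each CpG is read from the current. All 3 came from cerebellum DNA of the female C57Bl6Cr mouse at 8 weeks of age, with no treatment, and the shared start of their library names gives them as separate pulldowns of 1 DNA sample. The α-5hmC antibody was whole serum in replicate 1, and an IgG-purified form was used in the other 2 replicates. Replicates are therefore technical, and every spread and p-value below measures pulldown, library and region, not animals. No expression was measured, so the tissue could not be checked against marker genes.

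The replicates differed strongly in how much they gave. On chromosomes 1 to 19 replicate 1 had 490 peaks, replicate 2 had 8506 and replicate 3 had 5146. Of these, 45, 804 and 461 fell in the regions outside genes, a share of 9.18%, 9.45% and 8.96%, so the share was 9.20% ± 0.247 (SD, n = 3) in spite of the unequal lists. The regions were mostly short, with a median length of 304 bp and a longest of 2649 bp. They held 9463 CpG of the reference, of which 27.7%, 55.7% and 39.9% had at least 1 base-call in replicates 1, 2 and 3. Coverage was very shallow: 65.0%, 65.9% and 63.7% of the CpG sites with a call had a single one. No CpG was present in 46 regions, and a further 81 had CpG but no call in any replicate.

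5hmC is made from 5-methylcytosine (5mC) by the TET dioxygenases, and it is abundant in the DNA of neurons. Inside genes it is known to accumulate over the bodies of transcribed genes. Outside genes it is known from distal regulatory elements such as enhancers, where it marks methylation that is being turned over, whereas satellite repeats and other silent repeated DNA are typically rich in 5mC. An antibody pulldown reports that a fragment was bound, while the nanopore calls on the same fragment report whether each CpG was read as 5hmC, 5mC or unmodified C.

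Stretches of 300 bases around the peak summits of 4 regions are printed to show how unlike each other these regions were in CpG content and in state. Each is on the forward strand of GRCm39 (mm39), with every CpG in capitals.
chr6:47725301-47725600, in a tandem array between Ezh2 and Pdia4: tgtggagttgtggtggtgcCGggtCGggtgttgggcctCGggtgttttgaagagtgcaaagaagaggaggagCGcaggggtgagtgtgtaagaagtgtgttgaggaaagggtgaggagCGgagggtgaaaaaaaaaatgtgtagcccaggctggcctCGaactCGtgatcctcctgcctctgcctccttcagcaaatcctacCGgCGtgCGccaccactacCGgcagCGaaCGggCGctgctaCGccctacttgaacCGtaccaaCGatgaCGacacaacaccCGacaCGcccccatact
chr1:134267213-134267512, the region with the highest 5hmC share among those with 20 or more calls: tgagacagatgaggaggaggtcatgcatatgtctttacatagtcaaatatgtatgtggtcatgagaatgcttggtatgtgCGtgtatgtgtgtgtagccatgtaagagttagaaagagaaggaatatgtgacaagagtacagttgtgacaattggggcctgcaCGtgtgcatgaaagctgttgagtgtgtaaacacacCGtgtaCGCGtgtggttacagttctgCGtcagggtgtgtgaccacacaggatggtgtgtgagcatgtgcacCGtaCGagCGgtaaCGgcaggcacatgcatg
chr12:3159822-3160121, the region with the highest mean fold enrichment: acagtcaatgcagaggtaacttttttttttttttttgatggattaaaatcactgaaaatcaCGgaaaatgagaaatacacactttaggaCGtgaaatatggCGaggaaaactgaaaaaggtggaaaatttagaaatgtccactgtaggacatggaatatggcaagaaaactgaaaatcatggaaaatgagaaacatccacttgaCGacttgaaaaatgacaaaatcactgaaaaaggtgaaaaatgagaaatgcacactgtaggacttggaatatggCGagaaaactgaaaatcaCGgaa
chr2:94104749-94105048, a single-copy region with a peak in all 3 replicates: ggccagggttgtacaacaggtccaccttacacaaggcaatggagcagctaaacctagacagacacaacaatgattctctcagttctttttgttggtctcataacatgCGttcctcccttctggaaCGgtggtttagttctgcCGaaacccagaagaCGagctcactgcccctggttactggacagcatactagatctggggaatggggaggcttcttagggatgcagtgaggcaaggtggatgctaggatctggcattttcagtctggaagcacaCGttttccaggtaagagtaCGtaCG

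The first stretch held 20 CpG and a GC content of 58.3%, and of its 200 calls over the 3 replicates 191 were unmodified C, 3 were 5mC and 6 were 5hmC. The second held 10 CpG, and 27 of its 41 calls were 5hmC. The third held 6 CpG at a GC content of 34.3%, and 85 of its 95 calls were 5mC. The fourth held 7 CpG, and its 31 calls were split into 8 of 5hmC, 18 of 5mC and 5 of unmodified C.

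Regions outside genes lay close to genes. Their median distance to the edge of the nearest gene of any type was 6.10 kb, with quartiles of 2.30 and 14.98 kb. In all, 778 of 1224 (63.6%) were within 10 kb of a gene, against 39.5% of the bases that the rule could have picked (exact binomial test, two-sided; adjusted p = 4.71e-64, Benjamini-Hochberg over 9 tests). By replicate, 16 of 45 regions (35.6%; 95% exact binomial interval 21.9 to 51.2) with a peak in replicate 1 were within 10 kb, 519 of 803 (64.6%; interval 61.2 to 67.9) in replicate 2 and 292 of 459 (63.6%; interval 59.0 to 68.0) in replicate 3. Replicates 2 and 3 lay well above the background share and replicate 1, with few regions, included it in its interval. The p-value treats regions as independent draws and eligible bases as equally able to be sequenced and mapped, which was not tested. Taking eligible CpG in place of bases raised the background to 44.9%.

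For genes of any type the excess was found in the nearest bins and the deficit in the farthest. Within 5 kb of a gene were 535 regions (43.7%) against 23.4% of eligible bases, and between 5 and 10 kb 243 (19.9%) against 16.05%. Between 10 and 50 kb the order turned, with 392 regions (32.0%) against 41.4% of bases. Beyond 50 kb were 54 regions (4.41%) against 19.1% of bases. Measured to protein-coding genes alone, 258 regions (21.1%) were within 5 kb against 8.84% of bases, and 489 (40.0%) were beyond 50 kb against 62.9%. For these genes the bin from 10 to 50 kb also held an excess, with 360 regions (29.4%) against 21.7% of bases.

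**Figure D1:**
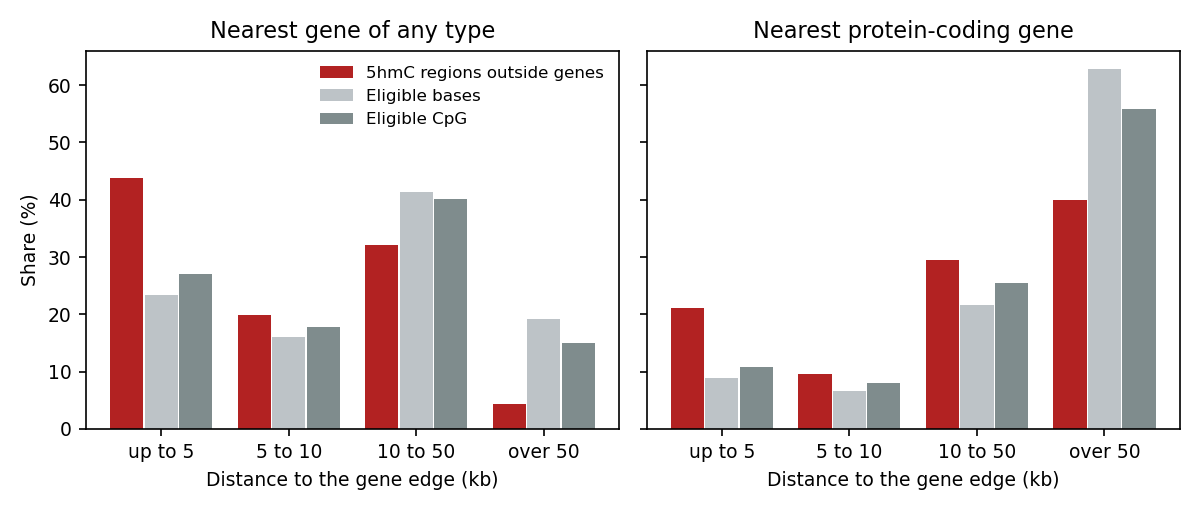
Share (%) of the 1224 5hmC regions outside genes, of eligible bases and of eligible CpG in 4 bins of distance (kb) to the edge of the nearest gene, for genes of any type and for protein-coding genes alone. Regions exceed both backgrounds within 5 kb (43.7% against 23.4% of bases and 27.04% of CpG) and fall below them beyond 50 kb.

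The nearest gene was a long non-coding RNA for 677 regions (55.3%, against 45.0% of eligible bases) and a protein-coding gene for 348 (28.4%, against 19.7%). A processed pseudogene was nearest for 110 regions (8.99%), which was less than the 21.6% of eligible bases. A miRNA gene was nearest for 21 regions (1.72% against 1.70% of bases). No preference for either end of the gene passed the test: 680 regions (55.6%) lay beyond the 3′ end of their nearest gene, against 55.0% of eligible bases (exact binomial test; adjusted p = 0.709). Among regions more than 5 kb from every start it did pass, at 62.02% against 57.6% of bases (exact binomial test; adjusted p = 0.0145). The 3 regions farthest from any gene were chr10:55581461-55581764, at 227 kb from the lncRNA gene Gm67546, chr10:55173285-55173588, at 173 kb from a pseudogene, and chr16:39590771-39591072, at 163 kb from a pseudogene. Each of the 3 had a peak in 1 replicate and no more than 4 calls, none of them 5hmC.

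Regions outside genes lay next to genes with a 5hmC region in their body more often than eligible sequence did. The nearest gene held a merged region for 308 regions (25.2%), against 6.00% of eligible bases (exact binomial test; adjusted p = 2.39e-102). The share was 22.2%, 26.3% and 24.8% among regions with a peak in replicates 1, 2 and 3, and 11.4%, 25.5% and 23.6% without the tandem array described below, so that of replicate 1 (4 of 35 regions without the array) rested largely on it. Without the peaks of replicate 2, which leaves fewer regions both outside and inside genes, it was 15.2% against 3.34% of bases. The genes that hold a region were taken from the same peaks as the regions outside genes. The p-values here treat regions as independent draws, although some lie in clusters beside the same gene. The depth of the input library over these genes was not tested, nor was how well reads map there. Over protein-coding genes alone the share was 46.6% against 25% of bases (exact binomial test; adjusted p = 1.09e-58).

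The regions were spread over many neighbours. Taking the nearest protein-coding gene of each region named 947 genes, of which 764 had 1 region, 136 had 2 and 47 had 3 or more. Rngtt, which encodes the mRNA capping enzyme, had 8 regions between 17.3 and 165 kb away, with 41 5hmC calls among 114 (36.0%). Alkbh8, a tRNA methyltransferase gene, had 5, which all lay in repeated DNA near the assembled start of chromosome 9 and had a 5hmC share of 1.89%. Cd83, Tafa5 and Tph2 had 5 each, with 5hmC shares of 28.6%, 35.6% and 26.8%. Slc4a4, which encodes a sodium bicarbonate cotransporter, had 4 regions at 3.46 to 49.8 kb with 27 5hmC calls among 53 (50.9%). Gadd45g, Dio3, Kcnk12, Ppp3ca and Sorl1 were among the genes with 4. These genes were singled out for their counts after the values were seen, and Slc4a4 also for its 5hmC share, the highest of the 11 genes with 4 regions, of which Tbx3 had the lowest at 20%.

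Genes of cerebellar cell types were the nearest protein-coding gene of few regions. Of the 20 granule cell genes on the list, 6 had 7 regions (0.572% of the regions, against 0.238% of eligible bases). They were Etv1 with 2 and Barhl2, Cbln1, Fat2, Rbfox3 and Zic1 with 1 each. Of 16 Purkinje cell genes only Rora, a nuclear receptor, was nearest to any, with 3 regions (0.245% against 0.223% of bases) at 39.3 kb and beyond and 2 5hmC calls among 11. Of 16 glial genes only Mbp, which encodes myelin basic protein, had regions, with 2 (0.163% against 0.101%) at 16.3 kb and beyond. Among 11 interneuron and unipolar brush cell genes only Lgi2 had a region (0.0817% against 0.157%), 6.18 kb past its 3′ end, with peaks in 2 replicates and 7 5hmC calls among 32. Of 24 transcription regulators of the developing cerebellum, 6 had 6 regions (0.490% against 0.462% of bases), among them Nfib, Meis1 and Irx5. The calls over these lists were few, from 11 to 56 per list, and no test was made on them.

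Whether peaks were higher than inside genes depended on the peaks counted. The median fold enrichment over the input library was 5.42, 3.81 and 3.87 in replicates 1, 2 and 3, against 4.72, 3.83 and 3.87 inside genes. The fold difference over all peaks, with replicate as a factor, was 1.01 (95% interval 0.997 to 1.03; linear model on log2 values, adjusted p = 0.163), and the exact permutation test on the replicate medians gave p = 0.9. The log2 difference passed in the same model without replicate 2 (0.0531, n = 505 peaks outside genes, adjusted p = 0.00689) and beyond 5 kb from every start (0.0310, n = 925, adjusted p = 0.0395). Among peaks with a fold enrichment of at least 4 it was 0.0837 (n = 282, same model, adjusted p = 0.00105). That cut is made on the value compared, so this last test decides nothing. Without the tandem array described below, the median of replicate 1 was 4.72 outside as inside genes, and the log2 difference turned to -0.00143 (n = 1262, adjusted p = 0.887). The highest mean fold enrichment of a region with peaks in 2 or more replicates was 13.3 ± 4.53 (SD, n = 3), on chromosome 12. The next were 10.1 ± 1.32 (SD, n = 2) at chr18:32832542-32833630, a region of 66.1% GC with no calls, and 9.30 ± 0.496 (SD, n = 3) at chr6:47724776-47727170.

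Few regions were found more than once. A peak was present in 2 or more replicates for 70 of the 1224 regions (5.72%), against a background of 5.97% over all merged regions. Inside genes it was 715 of 11851 (6.03%), and the difference did not pass (Fisher's exact test, two-sided; adjusted p = 0.709). Without the tandem array described below it was 57 of 1201 (4.75%; Fisher's exact test, adjusted p = 0.109). All 3 replicates had a peak in 13 regions. Replicate 2 alone accounted for 736 regions, replicate 3 alone for 393 and replicate 1 alone for 25. Among peaks with a fold enrichment of at least 4 the difference between outside and inside was 6.62 percentage points (Fisher's exact test, adjusted p = 0.000189). Without replicate 2 it was 1.73 points (Fisher's exact test, adjusted p = 0.00754). Both settings counted the array and were not run without it. Of the regions outside genes with peaks in both replicates 1 and 3, 9 were in the array. Elsewhere 4 had peaks in all 3 replicates and 3 had peaks in replicates 1 and 3 only. Whether sharing differed thus depended on which peaks were counted, and the part of the array in these 2 settings was not tested.

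Of the 13 regions with a peak in all 3 replicates, 9 belonged to 1 locus on chromosome 6. This locus held 23 regions in the 2 largest clusters, 11 at chr6:47632809-47663347 and 12 at chr6:47714075-47750158, on either side of an assembly gap of 50000 bp. On the map it lies between Ezh2, which encodes the histone methyltransferase of Polycomb repressive complex 2, and Pdia4, which encodes a protein disulfide isomerase of the endoplasmic reticulum. The nearest genes of any type were the lncRNA genes Gm40371 and Gm66711, 4.59 kb or more away. Its sequence was a tandem array: a median of 100% of the 31-base words in a region occurred elsewhere in the reference, with a median of 16 copies, and 72.5% of the repeated words recurred at a spacing of 4200 to 4500 bp. It was rich in GC and CpG, with a median GC content of 58.1% and 4.87 CpG per 100 bp, against 47.8% and 1.63 in the other regions outside genes. The first stretch printed above comes from its region with the highest mean fold enrichment.

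Enrichment at the array was found with both antibodies. Of the 23 regions, 10 had a peak in replicate 1, 20 in replicate 2 and 15 in replicate 3. At chr6:47724776-47727170 the fold enrichment was 8.77, 9.36 and 9.76 in replicates 1, 2 and 3. At chr6:47661495-47663347 it was 8.80, 7.85 and 8.16, and at chr6:47734106-47736553 it was 8.46, 7.66 and 8.18. The largest single value in the array, 11.9, was that of replicate 1 at chr6:47739696-47742182, where replicates 2 and 3 had 6.18 and 5.71. At the first 3 of these regions the values were similar across replicates, although replicate 1 had far fewer peaks overall. Because copies of the array are nearly alike and part of it is missing from the assembly, the copy from which a read came cannot be told, and the depth of the input library here was not tested.

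The calls in the array were mostly unmodified C. Its 5hmC share was 10.6%, 12.3% and 13.9% in replicates 1, 2 and 3 (12.3% ± 1.66, SD, n = 3). Its 5mC share was 22.6% ± 1.34 and its unmodified C share 65.1% ± 2.45 (SD, n = 3). The array regions with 10 or more calls, 22 of 23, ran from 8.33% to 82.4% unmodified C with a median of 65.4%. At chr6:47724776-47727170, the region with most calls in the array, 10.8% of 1507 calls were 5hmC (95% exact binomial interval 9.29 to 12.5), 19.5% were 5mC and 69.7% were unmodified C. On the near side of the gap 5mC exceeded unmodified C at chr6:47635354-47635657 (56.5% against 17.4% of 23 calls), and by less at chr6:47639991-47640630 and chr6:47658968-47659761. On the far side 5mC also exceeded unmodified C at chr6:47714075-47714464 and chr6:47715861-47716554, with 77.8% and 75% 5mC in 18 and 36 calls. The array covered 23 of 1224 regions but took 24.3%, 22.96% and 23.3% of all calls in the regions outside genes. Of the calls used in the comparison with genes below, which leaves out regions with a CpG of 20 or more calls, it took 55.7%, 29.7% and 28.7%.

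**Figure D2:**
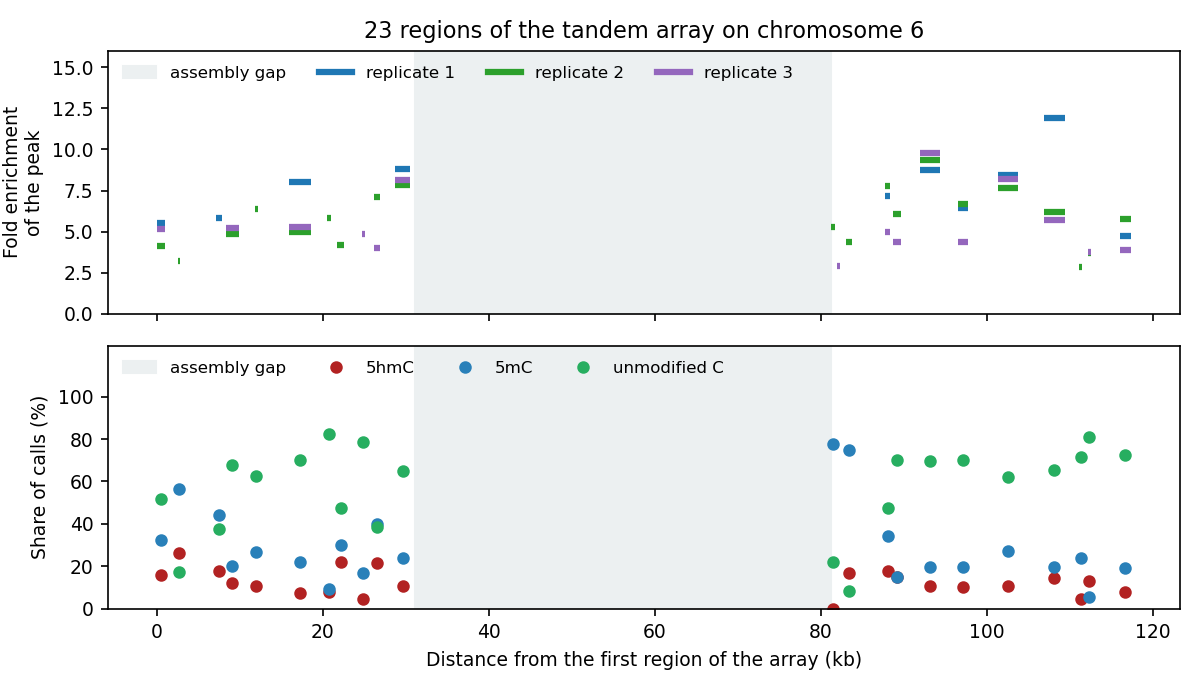
The 23 regions of the tandem array on chromosome 6 by distance (kb) from its first region. Above, the fold enrichment of each peak over input by replicate, each bar spanning its region, and below, the shares (%) of 5hmC, 5mC and unmodified C calls summed over replicates in the 22 regions with 10 or more calls, with the assembly gap of 50000 bp in grey. Unmodified C leads in most regions on both sides of the gap.

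The other 4 regions with a peak in all 3 replicates were unlike the array, and in state they formed 2 pairs. At chr2:94104607-94105732, 7.06 kb from the lncRNA gene Mir670hg, the fold enrichment was 4.65, 5.68 and 5.74, and 29.3% of 58 calls were 5hmC, with 31.8%, 26.9% and 30% by replicate. At chr6:50636324-50637066, 5.28 kb before the start of Npvf, which encodes a neuropeptide precursor, the fold enrichment was 3.74, 3.80 and 5.76, and 29.2% of 48 calls were 5hmC. These 5hmC shares lie near those of regions inside genes given below. At chr12:3159735-3160218 the fold enrichment was 17.8, 13.3 and 8.76, and 4.21% of 95 calls were 5hmC against 89.5% 5mC. Of its 31-base words 57.7% occurred elsewhere in the reference. At chr9:3000258-3001551 the fold enrichment was 5.19, 4.11 and 3.13, and 1.91% of 5961 calls were 5hmC against 87.5% 5mC.

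That last region was 1 of 5 in which some CpG had 20 or more calls in a replicate. All 5 lay at chr9:3000258-3035245, at the assembled start of the chromosome, with Mir101c as their nearest gene and 79.5% to 100% of their words repeated. They held 56.3%, 22.8% and 18.6% of all calls outside genes in replicates 1, 2 and 3. Their 5hmC share was 1.54%, 2.56% and 2.23% (2.11% ± 0.520, SD, n = 3) and their 5mC share 87.4% ± 0.598. Peaks in such places were mostly those of replicate 1: all 10 regions within 100 kb of the first assembled base of a chromosome had a peak in replicate 1, against 1 in replicate 2 and 1 in replicate 3. Together these 10 were at 1.55%, 2.54% and 2.22% 5hmC in 5818, 2360 and 1306 calls. Of these calls, 5711, 2344 and 1299 were those of the 5 regions on chromosome 9, so the pooled shares say little about the other chromosome starts. Because so few sites held so many calls, the 5 regions were left out of the shares that follow.

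Over the regions outside genes, 5hmC took a smaller share of calls than over regions inside genes. It was 18.2%, 27% and 25.8% of calls in replicates 1, 2 and 3 (23.7% ± 4.80, SD, n = 3), against 31.2%, 32.7% and 32.9% inside genes (32.3% ± 0.907). The replicate values did not overlap, and the difference was -8.59 percentage points (logistic regression with regions as clusters, odds ratio 0.678, 95% interval 0.571 to 0.804, adjusted p = 1.78e-05; exact permutation p over replicates = 0.1). A p of 0.1 is the smallest that 3 against 3 replicates allow, so only the spread over regions could pass a test. Unmodified C was higher, at 47.6%, 37.4% and 34.98% against 28.98%, 27.9% and 27.5%, a difference of 11.8 points (logistic regression, adjusted p = 0.00111; exact permutation p = 0.1). 5mC was 36.4% ± 2.55 (SD, n = 3) against 39.6% ± 0.205, a difference of -3.23 points that did not pass (logistic regression, adjusted p = 0.167; exact permutation p = 0.1). It did pass at a fold enrichment of at least 4 (-8.76 points, n = 220 regions outside genes, adjusted p = 0.000614), beyond 5 kb from every start (-5.03 points, n = 757, adjusted p = 0.0391) and at 3 or more calls per site (-9.43 points, n = 140, adjusted p = 0.00965). Outside and inside were read in the same libraries, and the 5hmC differences within replicates 1, 2 and 3 were -13.1, -5.66 and -7.07 points (exact paired permutation p = 0.25, the smallest that 3 pairs allow).

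With every region holding a CpG of 20 or more calls kept, inside genes as well as outside, the 5hmC difference was -8.27 points (adjusted p = 0.188), that of unmodified C 5.496 points (adjusted p = 0.452) and that of 5mC 2.77 points (adjusted p = 0.778), so that no call was left (logistic regression; 3 against 3 replicates cannot give an exact permutation p under 0.1).

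These differences rested on the array. Without its 23 regions, a setting chosen after the data were seen, 5hmC was 27.6%, 33.2% and 30.6% (30.5% ± 2.79, SD, n = 3) and the difference to genes was -1.77 points (odds ratio 0.949, 95% interval 0.883 to 1.02, adjusted p = 0.201; exact permutation p = 0.4). Replicate 2 then lay 0.562 points above its value inside genes and replicates 1 and 3 lay 3.57 and 2.29 points below theirs. 5mC then lay above its level in genes, at 48.5%, 41.7% and 45.4% (45.2% ± 3.399), a difference of 5.62 points (adjusted p = 3.58e-06; exact permutation p = 0.1). Unmodified C lay below it, at 23.8%, 25.04% and 24.01% (24.3% ± 0.654), a difference of -3.85 points (adjusted p = 0.000148; exact permutation p = 0.1). The directions of both 5mC and unmodified C therefore depended on whether the array was counted. In the 1069 regions with calls that remained, 5mC was higher and unmodified C lower than in genes in 3 of 3 replicates.

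**Figure D3:**
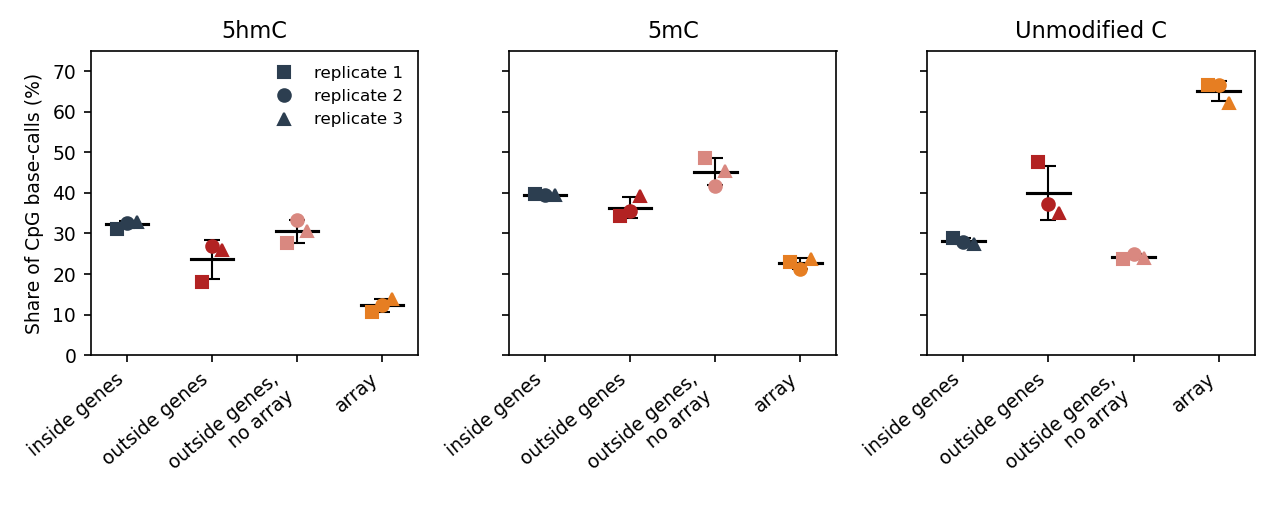
Shares (%) of 5hmC, 5mC and unmodified C among CpG base-calls in regions inside genes, outside genes, outside genes without the tandem array, and in the array alone, without regions holding a CpG of 20 or more calls. Symbols are the 3 replicates, long bars their mean and error bars their SD; the array stands at 65.1% unmodified C and pulls the regions outside genes from 24.3% to 40.0%.

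Single regions varied widely around these means. Among the 436 regions outside genes with 10 or more calls and no CpG of 20, the median 5hmC share was 30.2%, with quartiles of 17.6% and 40%. Inside genes the median was 32.6%, with quartiles of 21.3% and 44.3%. 5hmC made up at least 50% of the calls in 69 of the 436 (15.8%, background 17.9% over all merged regions), unmodified C in 69 (15.8%, background 16%) and 5mC in 163 (37.4%, background 33.3%). Of the 69 regions in which unmodified C led, 15 belonged to the array, so that 54 of 414 (13.04%) remained without it.

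The region with the highest 5hmC share among those with 20 or more calls was chr1:134266903-134268141, 3.63 kb past the lncRNA gene Gm57107 and 5.93 kb from Tmem183a. Its 5hmC share was 66.7%, 73.7% and 67.3% in replicates 1, 2 and 3, from 9, 38 and 49 calls, and 69.8% in all (95% exact binomial interval 59.6 to 78.7). Its peaks in replicates 2 and 3 had a fold enrichment of 4.79 and 4.84, and it was a single-copy sequence. The 3 replicates lay close to each other here, though replicate 1 had few calls. Another 3 regions among the highest had 21 to 23 calls each. They were 24.8 kb from Dusp5, a phosphatase gene, with 66.7% 5hmC, 132 kb from Cldn23, a claudin gene, with 66.7%, and 11.2 kb from Hnrnpc, which encodes an RNA-binding protein, with 65.2%. At these 3 the replicates did not lie close: in replicates 1, 2 and 3 the share was 33.3%, 100% and 57.1% near Dusp5, 0%, 66.7% and 70.6% near Cldn23, and 80%, 50% and 57.1% near Hnrnpc, from 1 to 17 calls each.

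At the low end, 4 regions with 20 or more calls had no 5hmC call. At chr4:118404431-118405426, 3.67 kb from Tmem125, none of 77 calls was 5hmC, which allows a share of up to 3.90% (3 calls of the total), although replicates 1 and 2 had peaks of 9.02 and 4.29 fold. This region had 62.8% GC and 90.3% of its words repeated. None of 62 calls was 5hmC at chr14:3050747-3051057 and none of 22 at chr14:3053372-3053846, near the assembled start of chromosome 14. None of 20 was at chr5:96455322-96455623, 40.9 kb past Mrpl1, a mitochondrial ribosomal protein gene. These counts of 0 allow shares of up to 4.84%, 13.6% and 15%. The fifth lowest was chr7:72138638-72139062, with 1 of 24 calls. In these 5 regions 5mC took 50.0% to 95.5% of calls. The intervals and limits given for single regions cover counting error only, since calls along 1 read are not independent.

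The 5hmC share was next set beside the distance from genes. Without the array it was 31.3% ± 1.92 (SD, n = 3) within 5 kb of the nearest gene, 31.96% ± 2.65 between 5 and 10 kb, 28.5% ± 4.34 between 10 and 50 kb, and 31.7% ± 6.59 beyond 50 kb. In replicate 1 the share was 29.5%, 29.6%, 23.8% and 39.3% from the nearest bin to the farthest, but its farthest bin had 28 calls in 6 regions. Replicate 2 gave 33.3%, 34.8%, 32.4% and 28.0%, and replicate 3 gave 31.1%, 31.4%, 29.3% and 27.7%. The bin from 10 to 50 kb was below that within 5 kb in 3 of 3 replicates, with differences of -5.67, -0.911 and -1.87 points. Beyond 50 kb the replicates with more calls were lowest, with 5mC at 55.3% and 57.1%, and replicate 1 was highest. These differences were not tested.

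**Figure D4:**
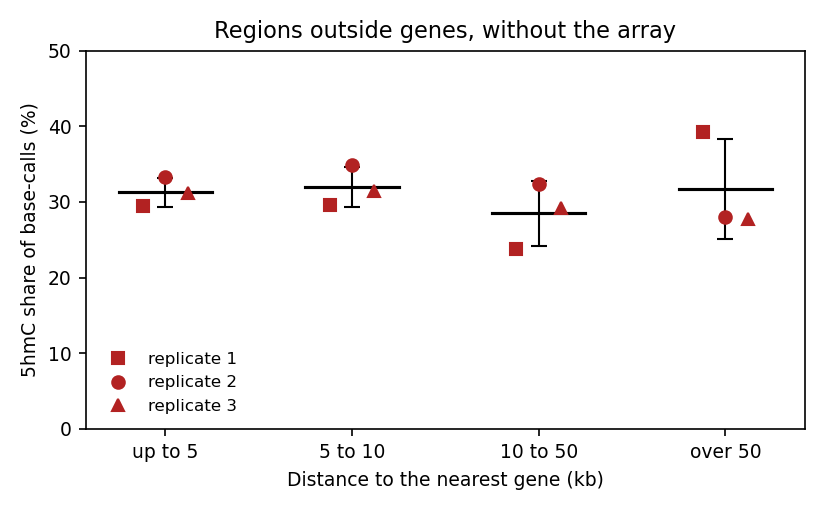
5hmC share (%) of base-calls in regions outside genes, without the array and without regions holding a CpG of 20 or more calls, in 4 bins of distance (kb) to the nearest gene. Symbols are the 3 replicates, long bars their mean and error bars their SD; the replicate ranges overlap between all bins, from 27.7% to 39.3% beyond 50 kb.

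Regions outside genes were poorer in CpG than those inside. They had 1.74 ± 1.12 CpG per 100 bp (SD, n = 1224 regions) against 1.999 ± 1.204 (SD, n = 11851 regions), a difference of -0.246 at equal length (linear model with robust errors, adjusted p = 7.46e-13). Eligible sequence, which lies outside genes and more than 1 kb from every start, had 0.680 CpG per 100 bp. The regions outside genes were thus far above their own background. By replicate the difference in means was 0.0628, -0.241 and -0.256 for replicates 1, 2 and 3, and without the array -0.664, -0.322 and -0.359. Replicate 1 thus had the opposite sign only while the array was counted. GC content was 47.5% ± 6.41 against 49.1% ± 6.47. Sequence repeated elsewhere was more common: 93 regions outside genes (7.60%) had at least 50% of their 31-base words repeated, against 264 inside (2.23%), and 70 of 1201 (5.83%) without the array.

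Among regions with 20 or more calls, state was also set beside CpG density. Outside the array, the 33 regions with up to 2 CpG per 100 bp had 33.2% 5hmC and 17.7% unmodified C in their summed calls. The 74 with 2 to 3 CpG per 100 bp had 32.7% and 23.7%, and the 50 with more had 27.3% and 25.5%. The median unmodified C share of single regions was 13.8%, 23.6% and 19.3% in the same order, so it did not rise steadily with density. The array averaged 65.1% unmodified C over the 3 replicates, though its single regions ran down to 8.33%.

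**Figure D5:**
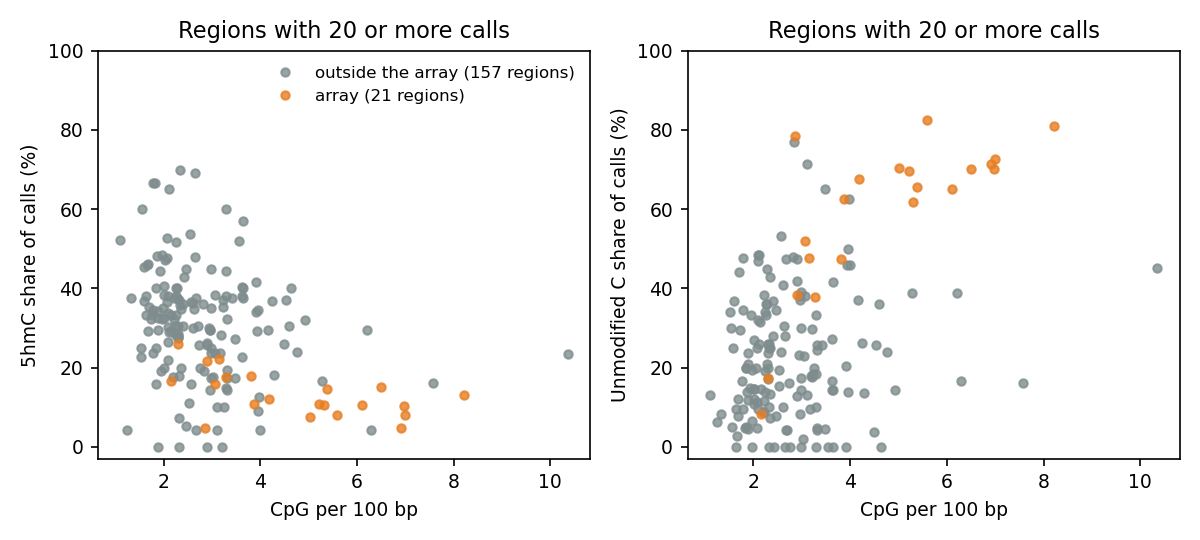
CpG per 100 bp against the 5hmC share (%) and the unmodified C share (%) of calls summed over replicates, for 157 regions outside the array and 21 array regions with 20 or more calls and no CpG of 20. Each point is a region; the densest array regions have low 5hmC and high unmodified C, and the sparser ones spread from the range of the other regions up to 78.6% unmodified C.

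Regions found in more than 1 replicate were set beside those found once. Without the array, 56 regions with peaks in 2 or 3 replicates had a 5hmC share of 29.7%, 38.6% and 33.7% in replicates 1, 2 and 3 (34.0% ± 4.45, SD, n = 3). The 1140 with a peak in 1 replicate had 27.1%, 32.7% and 30.1% (29.98% ± 2.797). The share was higher in 3 of 3 replicates for the regions found more than once, by 2.62, 5.91 and 3.65 points (4.06 ± 1.68, SD, n = 3), a difference that was not tested. They were longer, with a median of 601 bp against 304 bp, and at the same median distance from genes (5.88 and 5.90 kb). Where a replicate had no peak of its own in a region, its calls there were 31.96% 5hmC ± 1.99 (SD, n = 3). In regions where it had a peak of its own they were 27.6% ± 7.19. Inside genes the means were in the same order, at 32.8% ± 1.25 and 31.6% ± 1.67, with replicate 2 the other way (32.5% and 32.7%). The lowest value outside genes was that of replicate 1 in regions with a peak of its own, at 19.5% of 441 calls in 26 regions, with 58.3% 5mC.

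Most regions lay alone. With gaps of at most 10 kb between neighbours, 235 regions (19.2%) lay in 100 clusters, of which 85 were pairs and 10 had 3 regions. Without the array it was 212 of 1201 regions (17.7%) in 98 clusters. The next largest after the array had 4 regions each. The first, at chr4:33519577-33524599 near Rngtt, had 11 5hmC calls among 34 and peaks of replicates 2 and 3. The second, at chr10:114841087-114858510 near Tph2, which encodes the tryptophan hydroxylase of serotonin neurons, had 15 among 35. The third was the repeated DNA on chromosome 9. A cluster of 3 near Kcna10, a potassium channel gene, at chr3:107067924-107070980, had 13 5hmC calls among 19 (68.4%), which was the highest share of the 10 clusters of 3, the others running from 1.64% to 41.3%, and it was picked for that value. None of these 4 clusters had a region with peaks in 2 or more replicates. By chromosome, regions per Mb of eligible sequence ran from 0.574 on chromosome 14 to 2.06 on chromosome 11, with chromosome 6 falling from 1.37 to 0.974 without the array.

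Regions on either side of the 1 kb limit were compared. The 20 regions just beyond it, at 1007 to 1160 bp from a start, had 28.5% 5hmC in 302 calls and 1.81 CpG per 100 bp. The 20 just within it, at 883 to 998 bp, had 36.6% in 224 calls and 1.91 CpG per 100 bp. Over all regions outside genes within 1 kb of a start, the 5hmC share was 27.4% ± 1.60 (SD, n = 3). In the regions described here it was 23.7% ± 4.80, and 30.5% ± 2.79 without the array. These differences were not tested. Of the 1224 regions, 18 reached into a gene with part of their length.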

How the data were processed

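Per the labels and the study's methods, the authors base-called the reads with Dorado 0.5.1, aligned them to mm39 with minimap2 2.24 and ran MACS2 2.2.6 once per replicate, with 1 untreated library of the same sample as input, to obtain narrow peaks. The deposited peak lists hold an integer score, the fold enrichment over input as a ratio, and −log10 p and q values, of which the fold enrichment was used. The authors counted calls per CpG with modkit 0.2.8, with repeats masked per the study's methods. The deposited tables give for each site a count of calls per state and a percent modified, and only counts were tested. These tables do hold calls in repeated DNA. Among them are 5961 at chr9:3000258-3001551, where 88.1% of the 31-base words occurred elsewhere in the reference. Whether repeats were masked in the deposited tables was not tested. The methods state that blacklisted peaks were removed, and whether this holds for the deposited lists was not tested.

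Here, peaks on chromosomes 1 to 19 were merged and placed against GENCODE M39 on GRCm39 with Python 3.11.15, numpy 2.4.6 and scipy 1.17.1. Calls of each replicate were summed per region, which left out regions with a CpG of 20 or more calls. Outside and inside genes were compared by logistic or linear regression with replicate as a factor and errors clustered by region, by Fisher's exact test or by exact binomial tests against eligible bases, adjusted by the Benjamini-Hochberg method over 9 tests at 0.05. The functions were tested on simulated data. A test of soft-masked bases was not run, because the reference holds 0 lower-case bases; shares of 31-base words found elsewhere in the reference were used instead. Named regions were every one with peaks in 3 replicates or with a CpG of 20 calls, the 5 of highest mean fold enrichment with peaks in 2 or more replicates, the 3 farthest from genes, the 3 largest clusters with those tied with the third, and the 5 highest and 5 lowest in 5hmC share with 20 or more calls, of which 1 is not reported here. The regions and gene lists were chosen with earlier results of these data known. Calls per replicate in the regions were 10149, 10299 and 6980.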

Additional observations from a re-analysis of the deposited data

Results flagged for a closer look

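Data on the sex chromosomes were outside the comparisons, which used chromosomes 1 to 19, and they held signal above the limit that a count of 0 allows (3 calls). On chromosome X replicates 1, 2 and 3 had 3, 32 and 16 peaks, with 125, 223 and 236 5hmC calls, or 18.3%, 19.4% and 19.7% of calls. On chromosome Y, which a female mouse lacks, the same replicates had 3, 6 and 4 peaks, with 72, 295 and 82 5hmC calls, or 15.4%, 23.9% and 14.7% of 467, 1236 and 558 calls. The sequence from which the Y-assigned reads came was not tested.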

How the results depend on the processing

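Of 122 values under alternatives, 78 with a test kept their direction and their side of the threshold, and 12 with none (counts of regions and shares in clusters) moved by less than 1.5 times or stayed within the 95% binomial interval. Those on distance to genes, on the nearest gene holding a region and on CpG density all did, at 30.6% to 95.6% of regions, 12.9% to 46.6% of regions, and -0.306 to -0.228 CpG per 100 bp over all alternatives run. Leaving out 1 replicate at a time moved the 5hmC difference between -11.6 and -6.18 percentage points, that of 5mC between -4.93 and -1.99 and that of unmodified C between 8.18 and 14.7. It moved the number of regions between 488 (without replicate 2) and 1201, the share in clusters between 12.5% and 18.6%, the difference in sharing between 0.114 and 1.73 points (against -0.314 with all), the log2 fold enrichment difference between 0.00518 and 0.0531 (its largest value, without replicate 2, passed), and the share beyond 3′ ends between 52.0492% and 56.1%.

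Without the tandem array, an alternative added after the data were seen, the 5hmC, 5mC and unmodified C differences were -1.77, 5.62 and -3.85 points and that of log2 fold enrichment -0.00143. Without regions at least 50% repeated, also added, they were -1.04, 4.66, -3.62 and -0.0064, with -1.39 points for sharing and 56.9% beyond 3′ ends. With regions holding a CpG of 20 or more calls kept, the 3 differences were -8.27, 2.77 and 5.496 points. At a fold enrichment of at least 4, 241 regions remained, with -8.76 points of 5mC, 6.62 points of sharing, 0.0837 log2 fold enrichment and 51.5% beyond 3′ ends. The 5mC and sharing values passed their tests, with the array counted. So did that of fold enrichment, but the cut was made on the value tested, so its passing decides nothing. Beyond 5 kb from every start the values were -5.03 points of 5mC, 0.0310 log2 fold enrichment and 62.0209% beyond 3′ ends, which all passed. At 3 calls or more per site 5mC was at -9.43 points and passed. Whole regions outside genes gave 54.9% beyond 3′ ends, and eligible CpG as background left 55.6% against 55.7%. Clusters held 15.6% at gaps of 5 kb and 29.1% at 50 kb. Except where fewer regions or calls were counted by construction, the cause was not tested. With about 65% of called sites at 1 call, single sites could not be compared. Replicate was a factor in each regression, so outside and inside were compared within libraries; there is no second group of samples to pair.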
